A study of Bos taurus with 12 samples.

Results

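The 6 genes described here carry ketone bodies into the cell and convert them there: SLC16A1, BDH1, OXCT1, ACAT1, BDH2 and ACAT2. They were found on the array through the RefSeq transcript that names each probe, and every probe of a gene was kept. These are 6 of 12787 genes with a symbol, and 13 of 43653 probes. BDH1 and OXCT1, which act one after the other on β-hydroxybutyrate, gave lower signals in the mammary gland of feed-restricted cows, as did SLC16A1 and BDH2. ACAT1, the thiolase that completes the pathway, gave no called difference, and ACAT2 did not pass the background filter for the test.

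Ketone bodies reach the ruminant mammary gland in the blood, made from butyrate in the rumen wall and from fatty acids in the liver, and plasma β-hydroxybutyrate commonly rises when a lactating cow is short of energy. The monocarboxylate transporter encoded by SLC16A1 moves β-hydroxybutyrate, acetate and lactate across the cell membrane. In the mitochondrion BDH1 oxidises β-hydroxybutyrate to acetoacetate, OXCT1 transfers coenzyme A to acetoacetate from succinyl-CoA, and ACAT1 splits the acetoacetyl-CoA into acetyl-CoA. In the lactating ruminant gland the 4-carbon unit of β-hydroxybutyrate also serves as a primer for the synthesis of milk fatty acids.

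RNA came from mammary biopsies of multiparous Holstein cows in midlactation. CONT was the control period, sampled on day 0 with a lactation diet fed ad libitum, and REST was the restriction period, sampled on day 6 with feed cut to 50% of the net energy requirement for lactation. The same 6 cows gave both samples, from the left and right rear glands in alternation, on 12 one-colour arrays. No unrestricted cow was sampled on day 6, so restriction, time and the side of the biopsy cannot be told apart. The labels name 6 cows, the design text counts fewer, and the methods exclude a Holstein cow with mastitis without naming it, so the tests were repeated 6 times with a different cow omitted.

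The arrays were on 3 slides that each held the CONT and REST samples of a pair of cows. Slide 1 held cows 1 and 2, slide 2 held cows 3 and 4, and slide 3 held cows 5 and 6. Slide 3 stood apart in brightness: the 75th percentile of the signal was 73.1 to 117 intensity units there and 252 to 390 units on the other slides, and 41.9 to 48.0% of spots were well above background against 61.8 to 67.9%. Within each of the 6 cows the REST array had the higher 75th percentile, a difference that the scaling removes. All 7 luminal epithelial markers on the array were well above background on all 12 arrays, whereas none of the 4 adipocyte markers was well above background on all 6 arrays of a group. Normalized signals below are log2 values relative to the 75th percentile of the array, so that 1 unit is a doubling of the signal. Probes differ in brightness for the same amount of RNA, and signals are compared only within a probe.

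A probe was tested if it was well above background on every array of at least 1 group. This held for 10 of the 13 probes, which cover 5 of the 6 genes. REST was compared with CONT within cows with limma, and a probe was called at a Benjamini-Hochberg adjusted p under 0.1 over all 19406 tested probes. Of the 10 tested probes, 8 were called, and all 8 were lower in REST. Over all tested probes 16.0% were called, 8.78% lower and 7.22% higher. Counted by gene with the brightest tested probe, 4 of the 5 tested genes were called lower, beside 9.27% of all 7932 tested genes, of which 16.2% were called in either direction and 6.95% higher. The median change over all tested genes was -0.01 log2 units. In whole biopsies, fewer cells of a type and less RNA per cell cannot be told apart.

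**Figure D1:**
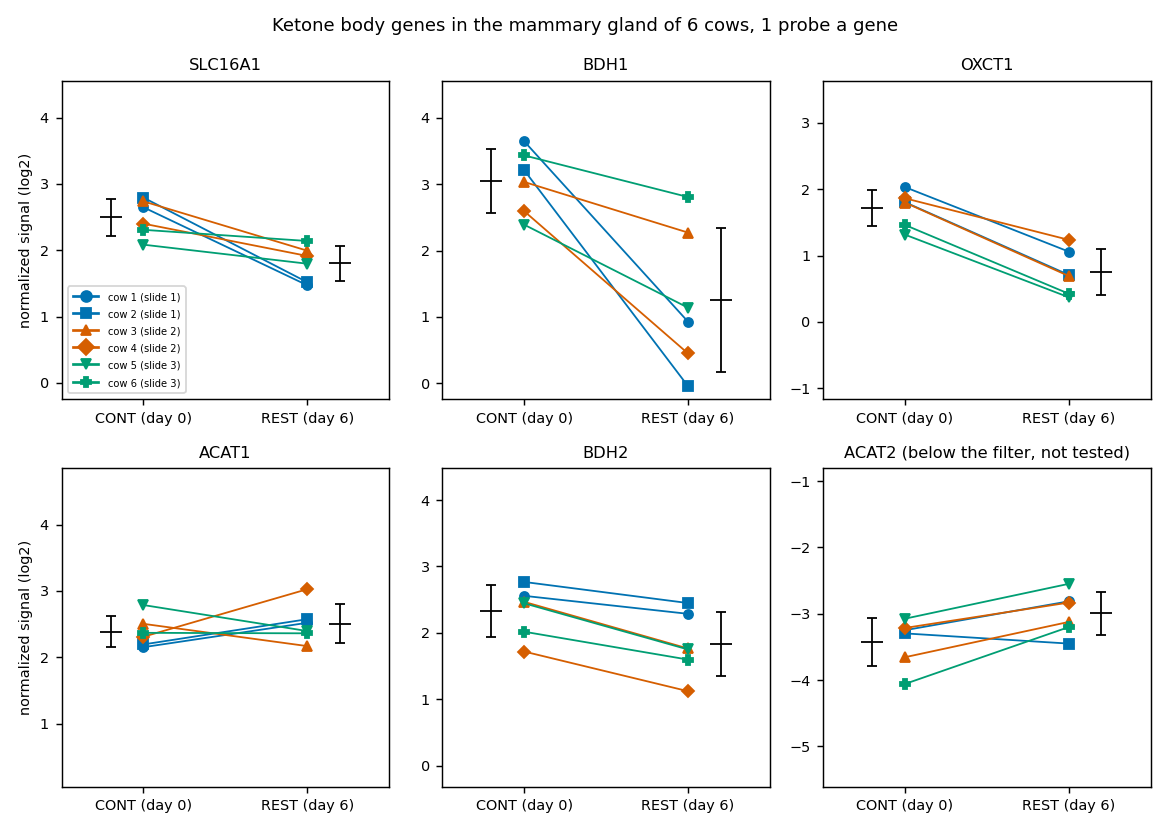
Normalized signal (log2, relative to the 75th percentile of the array) of the probe used for each gene in CONT and REST, with 1 line per cow, coloured by slide, and black bars for the mean ± SD of 6 arrays. The lines of BDH1, OXCT1, SLC16A1 and BDH2 fall in all 6 cows, and those of ACAT1 go both ways.

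SLC16A1, the transporter through which β-hydroxybutyrate and acetate enter the cell, was measured by 3 probes (NM_001037319). For the brightest probe, the lowest, median and highest signals were 2.08, 2.52 and 2.79 in CONT and 1.47, 1.86 and 2.14 in REST. Every cow had the lower signal in REST, but the groups overlapped. The change was -0.69 log2 units (SE 0.16, 95% interval -1.04 to -0.33, limma adjusted p = 0.0361), so that CONT was 1.61-fold higher. The mean change was -1.22 on slide 1, -0.61 on slide 2 and -0.23 on slide 3, where the arrays were dimmest, and the part of the brightness in this order was not tested. The other probes changed by -0.71 (SE 0.19, limma adjusted p = 0.0598) and -0.79 (SE 0.19, limma adjusted p = 0.0414), lower in 5 of 6 cows each. The exception was cow 6, with +0.18 and +0.01. Without cow 2 the brightest probe changed by -0.57 and was no longer called (limma adjusted p = 0.101). The -0.71 probe also lost its call with any 1 of cows 1 to 4 left out (limma adjusted p 0.110 to 0.165), and the -0.79 probe without cow 1, 2 or 4 (limma adjusted p 0.104 to 0.114).

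BDH1, the mitochondrial dehydrogenase that starts the use of β-hydroxybutyrate, had a single probe (NM_001034600) and the largest mean fall of the 6 genes. Its signal in CONT was 2.39 at the lowest, 3.12 at the median and 3.65 at the highest. In REST the corresponding values were -0.04, 1.04 and 2.81, so that the spread widened from an SD of 0.48 to 1.09. The groups overlapped through cow 6, whose REST signal of 2.81 lay above the lowest CONT signal, and the REST signal of cow 3 (2.27) came close to it. All 6 cows were lower in REST, with changes of -2.72, -3.25, -0.76, -2.14, -1.25 and -0.63 in cows 1 to 6. The mean change was -1.79 (SE 0.34, 95% interval -2.56 to -1.02, limma adjusted p = 0.0218), which is 3.46-fold higher in CONT. Among the 7932 tested genes, 8 had a larger mean fall. A called fall of at least 1 unit was found for 0.474% of the tested probes. By slide, the mean change was -2.98 on slide 1, -1.45 on slide 2 and -0.94 on slide 3, the order of SLC16A1, and the part of slide brightness was not tested here either. With 1 cow left out, the change lay between -2.03 and -1.50 and was called each time (limma adjusted p 0.0276 to 0.0736). When all 43653 probes entered the adjustment, the adjusted p of the same change was 0.110.

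OXCT1, the transferase that forms acetoacetyl-CoA and commits acetoacetate to use, was measured by 2 probes that separated the periods completely (NM_001076070). The first of its probes had CONT signals of 1.32, 1.80 and 2.03 (lowest, median, highest) and REST signals of 0.37, 0.70 and 1.24. No REST array reached the lowest CONT array, a separation that 1.50% of the tested probes showed in this direction. The change was -0.96 log2 units (SE 0.09, 95% interval -1.16 to -0.76, limma adjusted p = 0.00274), or 1.95-fold higher in CONT, and 11 of the 19406 tested probes had a smaller p. The changes of single cows ran from -1.11 to -0.63, and slides 1, 2 and 3 gave -1.03, -0.87 and -0.99. The second probe separated the groups as well, and its signals ran from 0.11 to 0.68 in CONT, with a median of 0.29, and from -0.96 to -0.14 in REST, with a median of -0.55. Its change was -0.93 (SE 0.10, limma adjusted p = 0.00463), within the interval of the first. On slides 1, 2 and 3 it was -1.08, -0.93 and -0.80.

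ACAT1, the mitochondrial thiolase that splits acetoacetyl-CoA, did not share these falls (NM_001046075). The brighter of its probes had signals of 2.15, 2.34 and 2.79 in CONT and 2.17, 2.46 and 3.03 in REST. The groups covered almost the same range, with 3 cows higher and 3 lower in REST. The change was 0.12 log2 units (SE 0.15, 95% interval -0.22 to 0.47, limma adjusted p = 0.637), an interval that holds neither the change of BDH1 nor that of OXCT1. On slides 1, 2 and 3 it was 0.37, 0.19 and -0.20. The second probe gave 0.12 as well (SE 0.16, limma adjusted p = 0.642), with 4 cows higher.

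BDH2, a cytosolic dehydrogenase, had a smaller fall than BDH1 that was even across cows (NM_001034488). The brighter probe had signals of 1.72, 2.46 and 2.77 in CONT and 1.12, 1.76 and 2.45 in REST. The groups overlapped widely because the cows differed in level, but each cow was lower in REST than in CONT, with changes of -0.70 to -0.27. Lower signals in every cow were seen for 9.81% of the tested probes. The change was -0.50 (SE 0.09, 95% interval -0.70 to -0.30, limma adjusted p = 0.0193), or 1.41-fold higher in CONT. The second probe changed by -0.46 (SE 0.08, limma adjusted p = 0.0183) and was also lower in 6 of 6 cows. Without the cow as a block, neither was called (limma adjusted p 0.281 and 0.337), and with the slide as the block the second was not called (limma adjusted p = 0.116). Of the 10 tested probes of the ketone body genes, 6 were called lower without the block, beside 2.74% of all tested probes (4.33% in either direction) and 2.81% of all tested genes.

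ACAT2, a cytosolic thiolase that joins acetyl-CoA units at the entrance of the mevalonate pathway, was not well above background on all arrays of either group (NM_001075549). Its 3 probes were well above background on 4, 2 and 0 of the 6 CONT arrays and on 4, 3 and 0 of the 6 REST arrays, and none passed the filter. The brightest had signals of -4.06, -3.27 and -3.07 in CONT and -3.45, -2.98 and -2.55 in REST. REST was higher in 5 of 6 cows, by 0.43 ± 0.33 (mean ± SD, n = 6). This probe entered the test when all probes were kept (limma adjusted p = 0.180) and when slide 3 was left out (change 0.30, limma adjusted p = 0.242), and was not called. The remaining probes went the other way, by -0.20 ± 0.41 and -0.23 ± 0.18, each lower in 5 of 6 cows. No direction can be given for ACAT2.

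**Figure D2:**
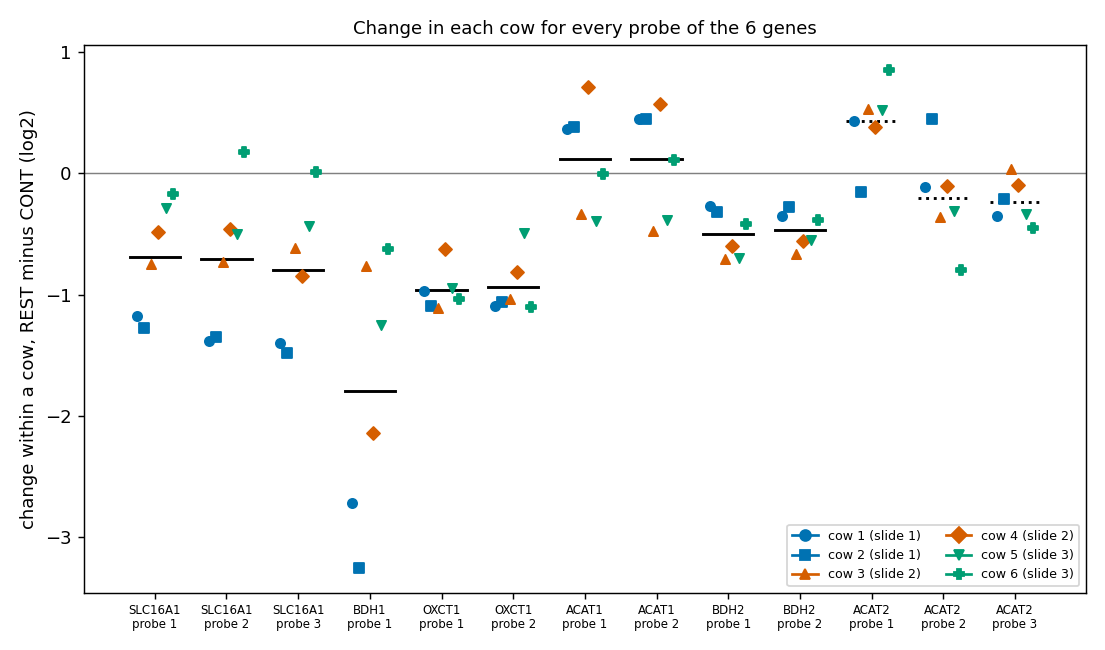
Change within each cow (REST minus CONT, log2) for all 13 probes of the 6 genes, with 1 symbol per cow, coloured by slide, and a black line at the mean, dotted for the untested ACAT2 probes. For BDH1 the cows spread from -3.25 to -0.63, whereas the cows of the first OXCT1 probe lie between -1.11 and -0.63.

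The change of BDH1 was set beside those of the other tested genes within each cow. BDH1 was singled out because its fall was known from earlier results of these data, so these differences are a description and no p is given. The change of BDH1 minus that of BDH2 was -1.29 ± 1.21 log2 units (mean ± SD over cows), negative in 6 of 6. Against SLC16A1 the difference was -1.103 ± 0.76 and against ACAT1 -1.91 ± 1.43, again negative in 6 of 6 cows. Against OXCT1 it was -0.83 ± 1.12 and negative in 4 of 6 cows. In cows 3 and 6, OXCT1 fell further than BDH1.

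The genes whose signals followed those of each ketone body gene most closely were ranked by Pearson correlation over the 12 arrays, among 7930 tested genes. The arrays share the difference between periods and the pairing of cows, so these values describe the pattern and are given without a p. For BDH1 the first was ABCG2 (r = 0.986), the transporter that secretes riboflavin and other compounds into milk, which changed by -1.32 (SE 0.26, limma adjusted p = 0.0238). Next came IDH1, the cytosolic isocitrate dehydrogenase that supplies NADPH (r = 0.971, change -0.87, limma adjusted p = 0.0560), and the nuclear receptor RORA (r = 0.960, change -0.57). PLA2G3, a secreted phospholipase, followed with r = 0.955 and a change of -2.52, and SPTSSA, a small subunit of the enzyme that begins sphingolipid synthesis, with r = 0.948 and a change of -0.92. All 5 were called lower, beside 9.27% of all tested genes. A ranking over the arrays of both periods favours genes that change as BDH1 does, so this count is no separate result.

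For OXCT1, the closest genes were the complex I subunits NDUFS7 (r = 0.966) and NDUFV1 (r = 0.943) and the fructose kinase KHK (r = 0.923). These 3 were called lower, with changes of -0.27, -0.44 and -0.38. The 3 closest to SLC16A1 were DYNLT2B (r = 0.955), MAP4K5 (r = 0.936) and SEMA3C (r = 0.925), with called changes of -0.41, -0.31 and -0.94. The ranking favours such calls for OXCT1 and SLC16A1 too. The patterns of BDH2 and ACAT1 had looser company. BDH2 was followed by D2HGDH, SIVA1 and TM4SF18 (r = 0.912, 0.912 and 0.902), of which only TM4SF18 was called (change -0.42, limma adjusted p = 0.0660). ACAT1 was followed by FBXL4, SLC28A3 and SERTAD4 (r = 0.870, 0.858 and 0.852), none of them called.

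The rest of the ketone body pathway was described with a list of 18 genes of ketone synthesis, use and regulation, none of them among the 6 above. The array held 15, and 9 were tested. Of these 9, 2 were called lower, 0 higher and 7 were not called, beside 9.27% lower and 6.95% higher among all tested genes, and the median change was -0.11. AACS, the cytosolic ligase that activates acetoacetate for lipid synthesis, had signals of 3.91 ± 0.38 in CONT and 3.35 ± 0.22 in REST (mean ± SD, n = 6). Its change was -0.55 (SE 0.17, limma adjusted p = 0.0740), lower in 5 of 6 cows, and 1 of its 2 probes was called. ACADS, the short-chain acyl-CoA dehydrogenase that oxidises butyryl-CoA, went from 2.85 ± 0.27 to 2.54 ± 0.10. Its change was -0.31 (SE 0.09, limma adjusted p = 0.0782), lower in 5 of 6 cows. The second ACADS probe changed by -0.57 (SE 0.09, limma adjusted p = 0.0134), lower in 6 of 6 cows, and no alternative run ended its call. The calls of AACS and of the brighter ACADS probe were lost when any of cows 1, 2, 3, 4 or 6 was left out (limma adjusted p up to 0.189 for AACS and 0.206 for ACADS) and without the block (limma adjusted p 0.109 and 0.217). The second AACS probe (-0.41, limma adjusted p = 0.203) was called without cow 5 (-0.63, limma adjusted p = 0.0248), without slide 3 (-0.61, limma adjusted p = 0.0664) and with normexp and the percentile shift (-0.36, limma adjusted p = 0.0682). With normexp background correction and the percentile shift the calls of the brighter probes were lost as well, AACS at -0.42 (limma adjusted p = 0.124) and ACADS at -0.14 (limma adjusted p = 0.405). The brighter ACADS probe was also not called with quantile normalization (limma adjusted p = 0.106) or normexp with quantile normalization (limma adjusted p = 0.183).

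The second list held 14 genes that use acetate, acetyl-CoA and the C4 primer in lipid synthesis, of which 11 were on the array and all 11 were tested. In REST 5 were called lower, 0 higher and 6 were not called, beside the same 9.27% lower and 6.95% higher among all tested genes, and the median change was -0.24. The called genes were lower in 6 of 6 cows each, as were 9.81% of all tested probes. Of these genes, 4 are described here. HMGCS1, the cytosolic synthase that takes acetoacetyl-CoA into the sterol pathway, went from 2.60 ± 0.83 to 0.36 ± 0.40 (change -2.24, SE 0.32, limma adjusted p = 0.00883). Its second tested probe, with a marked spot left out in 1 cow, was lower in the other 5 cows and changed by -1.60 (SE 0.26, limma adjusted p = 0.0175), and by -0.50 (limma adjusted p = 0.740) when the spots marked by the scanner software were kept. ACSS2, which activates acetate in the cytosol, went from 5.65 ± 0.40 to 4.05 ± 0.57 (change -1.60, SE 0.17, limma adjusted p = 0.00460). Its mitochondrial relative ACSS1 went from 5.55 ± 0.11 to 4.66 ± 0.29 (change -0.89, SE 0.10, limma adjusted p = 0.00463). For these 3 genes every REST array lay below every CONT array, a separation that 1.50% of the tested probes showed. ACACA, the carboxylase that forms malonyl-CoA for fatty acid synthesis, had 3 probes. The brightest changed by -0.39 (SE 0.11, limma adjusted p = 0.0599), and the others by -0.89 (SE 0.11, limma adjusted p = 0.00649) and -0.95 (SE 0.16, limma adjusted p = 0.0173), each lower in 6 of 6 cows. The call of the brightest was lost without cow 1, 2 or 4 (limma adjusted p 0.130 to 0.166), without the block (limma adjusted p = 0.402), with the cow as a random block (limma adjusted p = 0.114) and with normexp background correction (limma adjusted p 0.130 and 0.147). None of these ended the calls of the other probes. When all 43653 probes were tested, the brightest (limma adjusted p = 0.175) and the -0.95 probe (limma adjusted p = 0.101) were not called.

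The third list was the monocarboxylate transporter family beyond SLC16A1, with its chaperones. Of 17 genes, 11 were on the array and 3 were tested. The other 8 were not well above background on all arrays of either group, and without slide 3 the tested genes were 6. BSG, the membrane chaperone that brings the SLC16A1 protein to the cell surface, was called lower, and SLC16A13 and SLC5A12 were not called, beside 9.27% lower and 6.95% higher among all tested genes. BSG signals were 3.99 ± 0.19 in CONT and 3.60 ± 0.21 in REST, lower in 6 of 6 cows, as for 9.81% of tested probes. The groups did not overlap, a separation that 1.50% of the tested probes showed in this direction. The change was -0.39 (SE 0.11, limma adjusted p = 0.0580), and all 4 probes were called. Its mean change was -0.66, -0.33 and -0.18 on slides 1, 2 and 3, in the order seen for SLC16A1. The call of the brightest BSG probe was lost without cow 1, 2 or 4 (limma adjusted p 0.142 to 0.165) and without the block (limma adjusted p = 0.121). The other 3 BSG probes were likewise not called without cow 1, 2 or 4 (limma adjusted p 0.112 to 0.186), and 2 of them not without the block (limma adjusted p 0.202 and 0.233). With normexp and the percentile shift the brightest probe changed by -0.25 (limma adjusted p = 0.209) and was not called. The same 2 probes that lost their calls without the block were not called there either (-0.23 and -0.21, limma adjusted p 0.201 and 0.165).

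**Figure D3:**
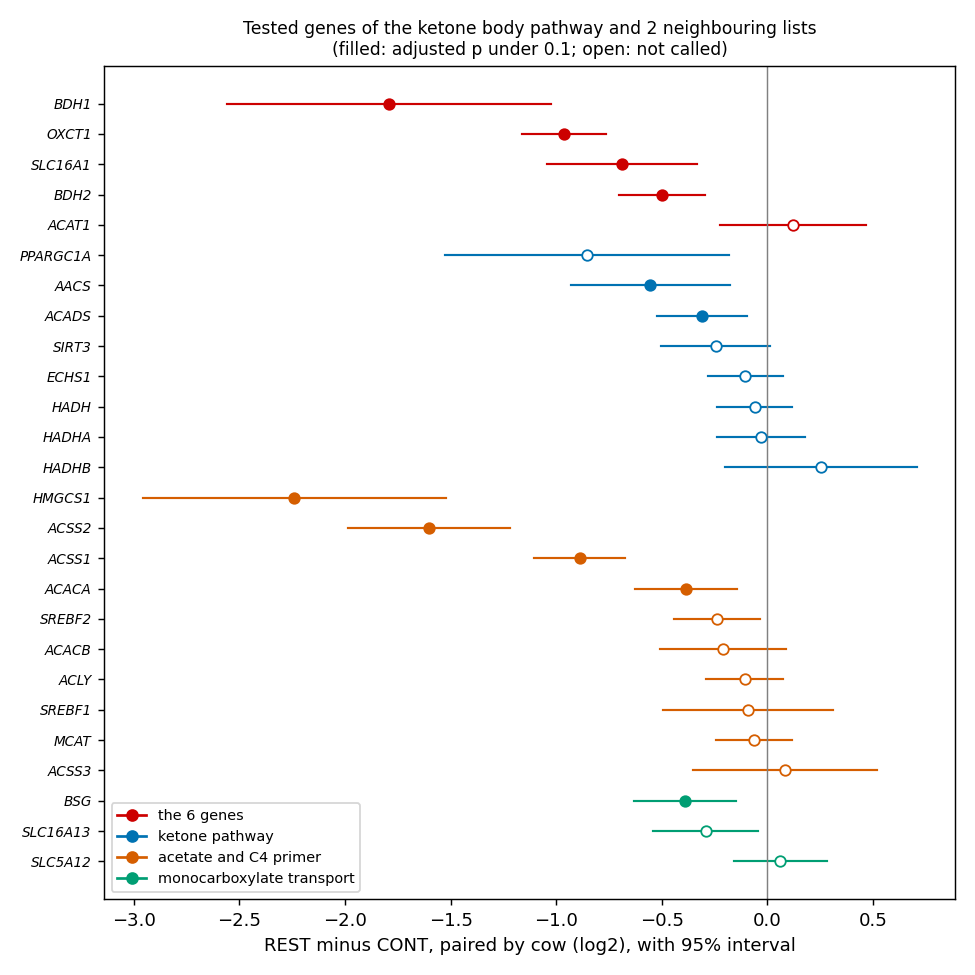
Change between periods (REST minus CONT, log2, paired by cow) with its 95% interval for tested genes among the 6 and in the 3 lists, with filled points for adjusted p under 0.1 and open points for genes not called. Filled points all lie below 0, from -2.24 for HMGCS1 to -0.31 for ACADS.

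Markers of the cell types in a biopsy were read beside these changes. Among 7 luminal epithelial markers, KRT8 and KRT18 were called higher in REST (0.72 and 0.52) and CSN3 lower (-0.28), with a median change of 0.12. Their summed level was 10.999 to 11.43 in CONT and 10.73 to 11.14 in REST (log2). Each sum here weighs a marker by the brightness of its probe. The luminal sum mostly follows the milk proteins CSN3 and LALBA, each lower in 6 of 6 cows, LALBA without a call (-0.20). Their mean REST signals were 9.705 and 9.805, against 7.054 for ELF5, the next brightest. The lower sum is therefore no measure of the amount of luminal epithelium. For the 6 myoepithelial markers on the array the summed level was 6.29 to 7.26 in CONT and 6.22 to 7.18 in REST. Of the 5 tested, ACTA2 was called lower (-0.38). The endothelial sum was 3.08 to 3.52 against 3.35 to 3.65, and VWF was called higher (0.54). None of 5 fibroblast markers was called (median -0.31, sum 4.95 to 5.89 against 4.64 to 6.09). The leukocyte sum was 2.67 to 3.05 against 2.78 to 3.20, with CD3E called higher (0.35) among 4 tested. Of the 2 tested skeletal muscle markers CKM was called lower (-0.36), and the 1 tested erythrocyte marker was not called. The summed adipocyte level, over 4 markers that were all untested, was -1.87 to -0.77 against -2.66 to -1.20. PLIN1 was not well above background on any of the 12 arrays. LEP was on 2 arrays of each period, CIDEC on 4 of each, and LIPE on 4 in CONT and 5 in REST. The part of cell composition in the falls of BDH1, OXCT1, SLC16A1 and BDH2 was not tested.

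**Figure D4:**
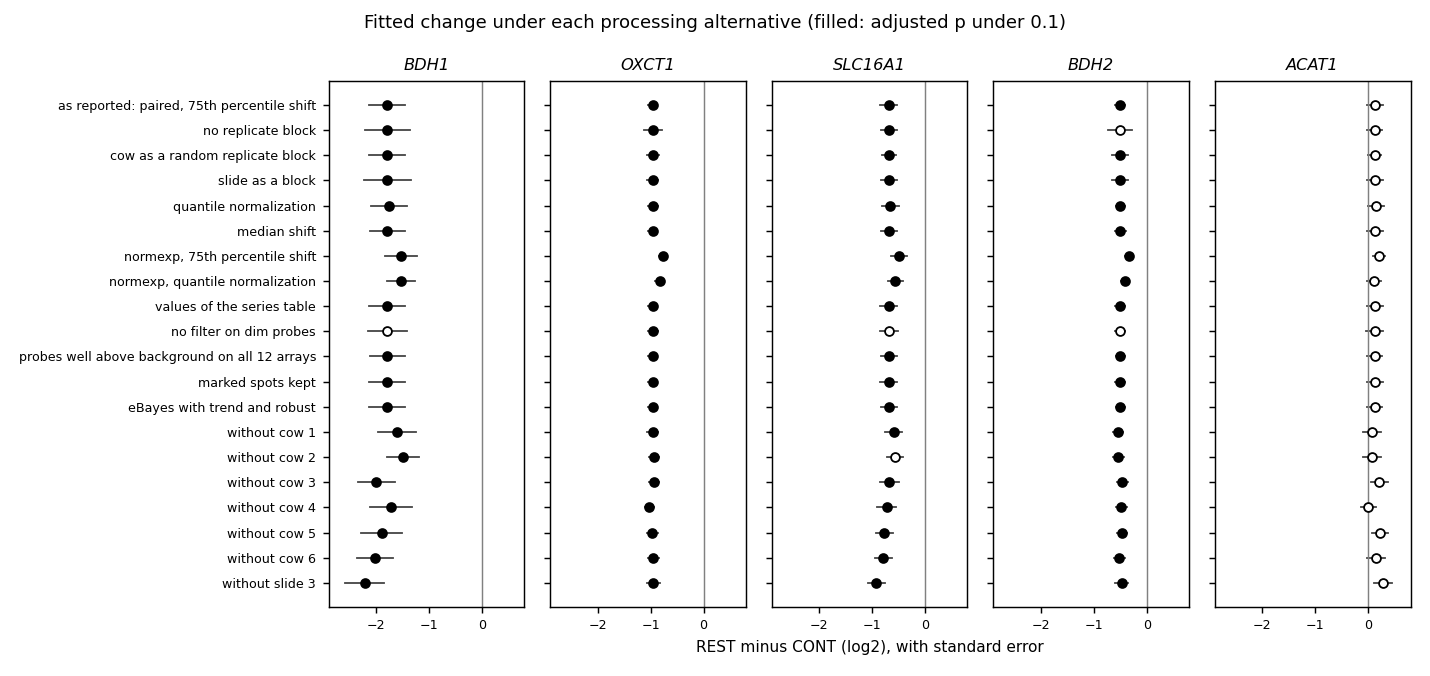
Fitted change (REST minus CONT, log2) with its standard error for 5 genes under each way of processing the arrays and with each cow left out, filled where the adjusted p was under 0.1. OXCT1 stays filled in every row, BDH1 ranges from -2.22 to -1.50, and ACAT1 is open throughout.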

How the data were processed

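Total RNA of 12 mammary biopsies was labelled with Cy3 by the authors, 50 ng per sample, and hybridised to bovine Agilent arrays. Per the file headers, the deposited values are background-subtracted intensities from Agilent Feature Extraction 11, with no scaling between arrays. The deposited series table held the same intensity in all 45220 cells of each array. The table has 0 columns without a sample. Control spots and 1 to 13 marked spots per array were left out, signals were log2-transformed, and the 75th percentile of each array was subtracted. Repeat spots of 50 probes were averaged. RefSeq identifiers gave 27131 of 43653 probes (62.2%) a symbol. The array annotation is of an older bovine assembly than the gene table, so no positions are given.

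The periods were compared in limma 3.58.1 (R 4.3.3, lmFit and eBayes), with the cow as a fixed block. Deviations from group means correlated between the arrays of a cow with r of 0.356 to 0.574 over 19398 probes, and between cows with r of -0.33 to 0.134, and the labels name the cow. The methods of the study name a moderated test without stating pairing, so the fit without the block is an alternative, as are other blocks, normalizations, background corrections, filters and moderation, and each cow or slide 3 left out. The normexp alternative (offset 50) used median spot signals, the column at hand, where mean signals had been planned. Where a gene had several probes, the tested probe of highest mean signal stood for it. Samples of 6 cows limit the precision of every value, and array signals have no counting interval. Named genes were the 6 genes, the called genes of the 3 lists (at most 5 by size) with AACS, and the 3 to 5 most correlated genes. Some list genes are counted without their values being reported here. The genes and lists were chosen with earlier results of these data known. The planned sign-flip test of BDH1 against the other genes is not quoted, because the fall of BDH1 was known. The fit was tested on simulated data. Python 3.11.15, pandas 2.3.3 and matplotlib 3.10.9 read files and drew plots.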

Additional observations from a re-analysis of the deposited data

Results flagged for a closer look

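The fall of OXCT1 in cow 4 stood away from that of the other cows. The first OXCT1 probe changed by -0.63 log2 units in cow 4 and by -1.11 to -0.94 in the other 5 cows. The gap to the next cow was 0.660 of the whole range, above the critical value of Dixon's test at 95% for 6 values. It was the only such value among 39 groups of 6 tested, where chance alone would give about 1.95 (1 in 20). The second OXCT1 probe changed by -0.82 in cow 4, inside the range of the other cows, of which cow 5 had the smallest fall (-0.49).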

How the results depend on the processing

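No change reversed its sign past the threshold under any alternative run. OXCT1 was called in all of them (change -1.03 to -0.76) and ACAT1 in none (0.00 to 0.28). Without the replicate block (the cow), 840 probes were called over the array, BDH2 kept its change of -0.50 but not its call (limma adjusted p = 0.281), and 0 genes of the ketone pathway list (3 at an unadjusted p under 0.05) and 0 of the monocarboxylate list (1 unadjusted) were called. The block changed the call of no other of the 6 genes. With the slide as the block 1901 probes were called, 7 of them of the 6 genes. Testing all 43653 probes left 386 called, 2 of the 13 probes of the ketone body genes, and 0 genes in the ketone pathway and monocarboxylate lists (4 and 3 unadjusted). The changes of BDH1 (-1.79), BDH2 (-0.50) and SLC16A1 (-0.69) then had limma adjusted p of 0.110, 0.105 and 0.140. With 1 cow left out, the calls ranged from 1053 to 3262 over the array, from 5 to 8 among the probes of the 6 genes (5 without cow 2), from 0 to 4 in the ketone pathway list (0 with any 1 of cows 1 to 4 left out, and 4, 2, 3 and 2 at an unadjusted p under 0.05) and from 0 to 1 in the monocarboxylate list. SLC16A1 then ranged from -0.79 to -0.57, the latter not called without cow 2 (limma adjusted p = 0.101). Quantile normalization and normexp with the percentile shift each gave 1 called gene in the ketone pathway list, which under normexp, read by the brightest probes, was neither AACS nor ACADS, and leaving out slide 3 gave 5, of which 4 were lower and HADHB was higher (0.48, limma adjusted p = 0.0663). HADHB was also called higher without cow 5 (0.50, limma adjusted p = 0.0247), where 3 genes of the list were lower. The monocarboxylate list held 0 under normexp with the percentile shift (0 unadjusted) and 2 with trend and robust moderation. The acetate and C4 primer list held 4 to 6 calls, not always of the same genes. Under normexp the ACAT2 probe changed by -0.19 in place of 0.43, without a test in either case. It gave -1.53 for BDH1, -0.76 for OXCT1, -0.50 for SLC16A1 and -0.33 for BDH2, all called. Without slide 3, BDH1 changed by -2.22 and SLC16A1 by -0.92. The cause of these shifts was not tested. Signal over background limits ACAT2 and most monocarboxylate transporters, and slide 3 was the dimmest.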

Other observations

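HADHA, the α subunit of the mitochondrial trifunctional protein of fatty acid oxidation, was chosen here after its values were seen, because its 3 tested probes disagreed. The brightest, used in the ketone pathway list, changed by -0.03 log2 units (limma adjusted p = 0.853). The other two went from -0.71 to -0.20 (change 0.51, SE 0.10, limma adjusted p = 0.0252) and from -2.38 to -1.35 (change 1.03, SE 0.23, limma adjusted p = 0.0346), each higher in 6 of 6 cows. PPARGC1A, a coactivator of mitochondrial genes, changed by -0.85 (SE 0.30) and was not called (limma adjusted p = 0.107), with mean changes of -1.80, -0.79 and 0.02 on slides 1, 2 and 3.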
